A study of Homo sapiens with 6 samples.

Results

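The genes described here are 37 genes of protein folding in the endoplasmic reticulum (ER), comprising its chaperones, its protein disulfide isomerases, and the sensors and targets of the unfolded protein response. They were taken by gene symbol from a list, by a rule that uses no measured value. The list itself was chosen with earlier results of these data known, so the shares called in it may not be independent of them. All 37 genes were found among the 23228 genes of the deposited tables. RNA-seq was performed on Hep3B cells, an established line from a human hepatocellular carcinoma grown in RPMI medium. There were 3 control libraries from cells carrying a non-targeting shRNA and 3 libraries labelled PELP1-KD from cells carrying shRNA against PELP1, a coregulator protein of transcription. Both shRNAs were delivered by lentivirus, and the knockdown cells were selected with puromycin and used as pooled stable clones. The sample titles name the first of 2 PELP1 shRNAs, whereas the protocol names both. Because the labels do not say that replicates came from separate cultures, p-values measure only the spread between these libraries, which may be technical.

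The ER is where secreted and membrane proteins fold, and liver cells, which make most plasma proteins, carry a large amount of it. BiP (HSPA5) and its cochaperones hold unfolded chains, calnexin and calreticulin hold glycosylated ones, and protein disulfide isomerases form and shuffle disulfide bonds with oxidizing power from the ERO1 oxidases. When unfolded proteins build up, the sensors IRE1 (ERN1), PERK (EIF2AK3) and ATF6 signal to the nucleus, and the factors XBP1 and cleaved ATF6 then induce many of the chaperone and degradation genes through short promoter elements.

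The best known of those elements is the ER stress response element (ERSE), which is CCAAT and CCACG with 9 bases of any kind (N) between them. A second one, ERSE-II, is ATTGG and CCACG with 1 base between them. Both were searched on both strands of the 300 bases of promoter that RefSeq (GRCh38.p14) gives for a gene, from 250 before its start to 50 after it. Of the 37 genes, 35 had a promoter sequence, and PDIA3 and ERN2 were not matched. An ERSE was found in 7 of the 35 (20%), whereas 27 of all 35116 RefSeq promoters held one (0.077%). An ERSE-II was found in 3 members (8.57%), against 19 of all promoters (0.054%). The list was made up of genes of this response, so the excess describes the list and is no result of these data. The carriers of ERSE were HSPA5, HSP90B1, CALR, CANX, CRELD2, XBP1 and ERO1LB, and those of ERSE-II were HYOU1, SDF2L1 and HERPUD1. The shorter ATF6 motif TGACGTGG was found in 1 member, HYOU1, where it overlaps an ERSE-II, and in 0.729% of all promoters. The stretches around the matches are shown because these genes are the classical targets of the response, and their RNA is followed through the results. They are RefSeq sequences placed by exact match in hg19, read 5′ to 3′ on the strand of the gene, with the fixed letters of each match in capitals. A match on the other strand appears as its reverse complement.
ERO1LB (chr1:236445468-236445508, minus strand): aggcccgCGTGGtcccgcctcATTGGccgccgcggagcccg
HSPA5 (chr9:128003667-128003703, minus strand): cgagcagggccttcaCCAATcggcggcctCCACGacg
HSP90B1 (chr12:104323979-104324132, plus strand): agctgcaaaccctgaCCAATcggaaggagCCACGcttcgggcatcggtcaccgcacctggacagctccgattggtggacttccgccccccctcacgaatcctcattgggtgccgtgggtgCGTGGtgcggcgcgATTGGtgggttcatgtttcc
HYOU1 (chr11:118927970-118928116, minus strand): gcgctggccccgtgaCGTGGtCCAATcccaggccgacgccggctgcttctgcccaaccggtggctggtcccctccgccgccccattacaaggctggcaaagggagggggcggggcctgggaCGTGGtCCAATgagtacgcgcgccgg
CALR (chr19:13049183-13049231, plus strand): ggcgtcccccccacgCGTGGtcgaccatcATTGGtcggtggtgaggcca
CANX (chr5:179125764-179125812, plus strand): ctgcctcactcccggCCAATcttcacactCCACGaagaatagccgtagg
SDF2L1 (chr22:21996388-21996428, plus strand): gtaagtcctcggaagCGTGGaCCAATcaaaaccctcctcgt
CRELD2 (chr22:50312187-50312235, plus strand): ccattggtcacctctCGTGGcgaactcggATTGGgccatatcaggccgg
XBP1 (chr22:29196576-29196624, minus strand): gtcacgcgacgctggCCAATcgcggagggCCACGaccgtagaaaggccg
A match describes the letters of the promoter and says nothing of binding in these cells. HSP90B1 and HYOU1 each held 2 matches, and the ERSE-II of HERPUD1, which lies inside the annotated gene, is not printed.

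Reads on genes numbered 26758180 to 34456393 per library, and 14537 genes were abundant enough to be tested in edgeR. The target PELP1 had 4893, 4914 and 5102 normalized reads (reads scaled to the library size) in control and 4421, 4825 and 4840.2 in PELP1-KD libraries. The groups did not overlap but lay close together, at a log2 fold change of −0.08 (standard error, SE, 0.04, edgeR adjusted p = 0.101). Blocking on the replicate number gave an adjusted p of 0.0106. These data hold no measure of PELP1 protein. Because its RNA lay near control, PELP1-KD libraries below are those that carry this label, and each direction is that of the labels. All 10 hepatocyte markers checked were expressed, with a summed level between 24690 and 25300 TPM (reads per length of exon, scaled to one total in each library) in control and between 21720 and 22750 in PELP1-KD libraries. Of these markers 7 fell, among them AHSG (log2 fold change −3.03), ALB (−0.61) and TTR (−0.61), and AFP (0.62), HNF4A (0.23) and FGB (0.17) rose. Of 5 leukocyte markers 2 were tested, with summed levels of 53.9 to 60.6 TPM in control and 74.3 to 77.1 in PELP1-KD, most of it CD68 (0.48), while CD14 fell (−0.98). Of 5 fibroblast markers 4 were tested, with sums of 21.0 to 23.1 and 34.7 to 36.3 TPM, of which LUM (0.92) and COL1A2 (0.51) rose, PDGFRB fell (−2.13) and COL3A1 was not called (−0.07). Of 4 endothelial markers 1 was tested, with CDH5 and KDR at 0 reads in every library. All 6 libraries are labelled as the Hep3B line, so these markers were measured in cultured cells of 1 line and not in mixed tissue. In bulk RNA, fewer cells of a kind within the culture and less RNA per cell cannot be told apart. The part of either in the results below was not tested.

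Of the 37 genes, 35 passed the filter, and most of them had less RNA in the libraries labelled PELP1-KD. Of the 35 tested genes 21 were lower (60%) with an edgeR adjusted p below 0.05, against 26.8% of all tested genes called lower. Only 3 were higher (8.57%), namely AGR2, CREB3L3 and ERO1LB, against 26.8% of all tested genes called higher. The remaining 11 were not called. The median log2 fold change of the 35 was −0.20, compared with 0.00 over all tested genes, and 30 of the 35 had a negative value. The changes were small. Apart from PDIA2, the 20 genes that fell had between 65.9% and 93.6% of the control level, with log2 fold changes from −0.60 to −0.10. A change of at least 2-fold was called for 1 higher gene, AGR2, against 2.85% of all tested genes, and for 1 lower gene, PDIA2, against 4.79%. PDIA2 passed the filter through its control libraries alone. The libraries of the groups did not overlap for 29 of the 35 genes (82.9%), compared with 58.8% of all tested genes. All 21 lower and all 3 higher genes were among them.

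**Figure D1:**
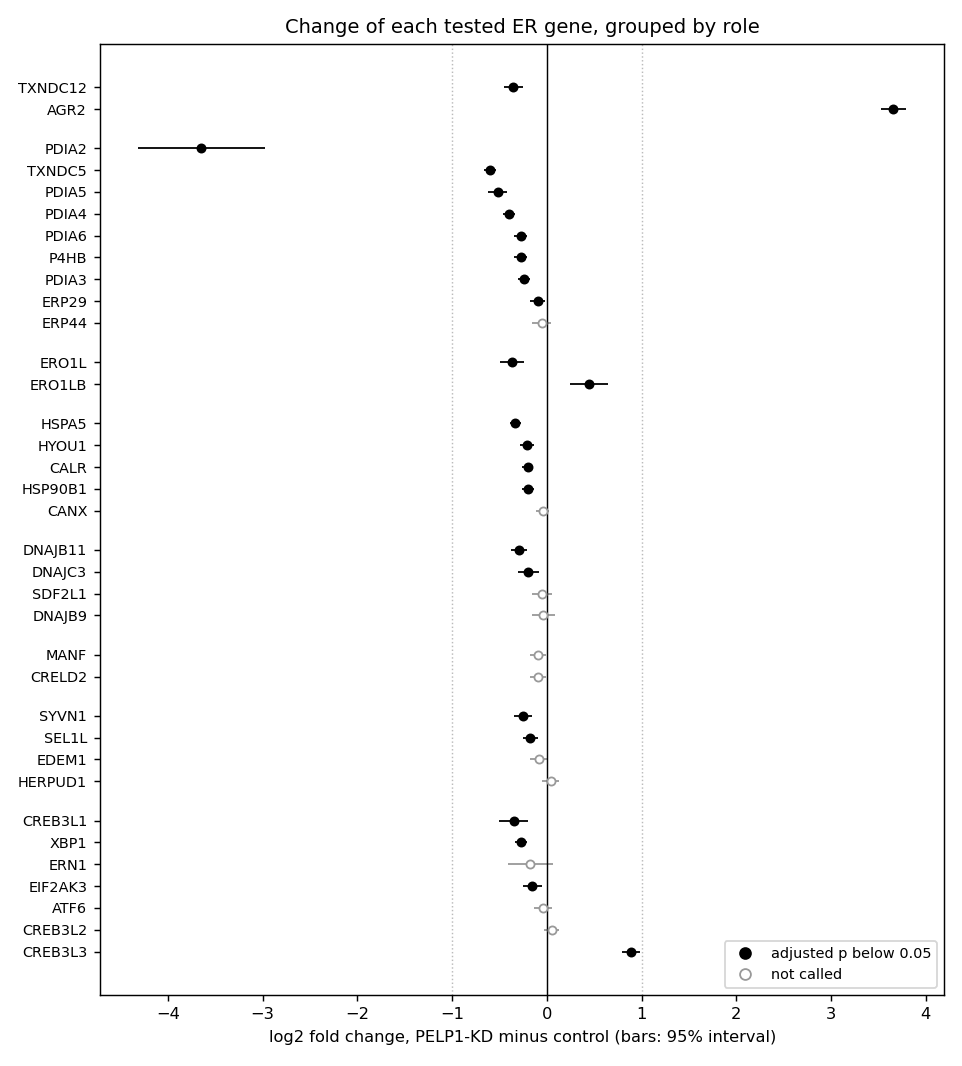
Log2 fold change (PELP1-KD minus control, horizontal axis) of each of the 35 tested genes, grouped by role from the AGR2 family at the top to the stress sensors and factors at the bottom, with 95% intervals as bars. Filled points passed an adjusted p of 0.05 and open points did not, and dotted lines mark a 2-fold change. Most points lie a little to the left of 0, while AGR2 at 3.66 and PDIA2 at −3.65 stand far from the rest.

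The smaller share of RNA was visible in each library. Together the 37 genes took 1.10%, 1.10% and 1.09% of all reads in control and 0.976%, 0.964% and 0.957% in PELP1-KD libraries, so the groups did not overlap. Per length of exon, they summed to between 8901 and 8989 TPM in control and between 7931 and 8124 TPM in PELP1-KD libraries. In control the order of levels was led by CALR with 1981 TPM, HSP90B1 with 1073, P4HB with 966 and XBP1 with 641. HSPA5 with 538 and CANX with 535 followed, and their libraries overlapped. Of the 10 genes with the highest control level 9 fell and none rose, with a median log2 fold change of −0.26. Of the other 25 tested genes 12 fell and 3 rose, with a median of −0.15. Of all tested genes, at any level, 26.8% were called lower and 26.8% higher. The shares called among other genes of like level were not counted. The SEs were smaller in the first set, with a median of 0.03 against 0.05.

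The AGR2 family of small disulfide isomerases moved in opposite directions. AGR2 lies on chromosome 7 of hg19 (chr7:16832264-16844738, minus strand) and encodes a disulfide isomerase known for mucin folding in secretory epithelia. Its 145, 157 and 149 normalized reads in control became 1950.3, 1888 and 1863 in PELP1-KD libraries, which lie far above the control libraries. The fold change was 12.6 (log2 fold change 3.66, SE 0.06, edgeR adjusted p = 9.6e-20). This moved AGR2 from place 32 of the 37 genes by TPM in control (10.4 ± 0.453, SD, n = 3) to place 16 (135 ± 5.34, SD, n = 3). TXNDC12 (ERp18, chr1:52485804-52521047), a small thioredoxin-like protein of the ER lumen, had 1927, 1892 and 1840.1 normalized reads in control and 1418, 1568 and 1442 in PELP1-KD libraries. The groups were apart, and TXNDC12 fell by 0.36 on the log2 scale (SE 0.05, adjusted p = 4.21e-06). AGR2 was thus the lower of the pair in control, where TXNDC12 stood at 80.4 ± 2.23 TPM, and the higher in PELP1-KD libraries, where TXNDC12 stood at 64.3 ± 3.59 TPM (SD, n = 3 each). AGR3, which lies 54292 bases from AGR2 on the same strand, had 3, 2 and 0 reads in control and 1, 5 and 2 in PELP1-KD libraries and was too rare to test.

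AGR2 and AGR3 are known from mucous epithelium, so markers of that cell type are given beside them. Values were given for 12 such markers, and 6 of them were tested, and their summed level was 118 to 127 TPM in control and 166 to 175 TPM in PELP1-KD libraries. Most of this was TFF1, a secreted trefoil peptide, at 61.5 and 102 TPM (log2 fold change 0.70, adjusted p = 2.08e-08), and the membrane mucin MUC13, at 43.0 and 51.0 TPM (0.22, adjusted p = 0.000843). FCGBP, a mucus protein, was rare and fell (−1.54, adjusted p = 7.86e-05). TFF2, TFF3 and MUC1 were not called. CLCA1 had 0 reads, and the defining factor SPDEF and the gel-forming mucin MUC2 were at or below 0.140 TPM in both groups. The part of this marker set in the AGR2 result was not tested.

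**Figure D2:**
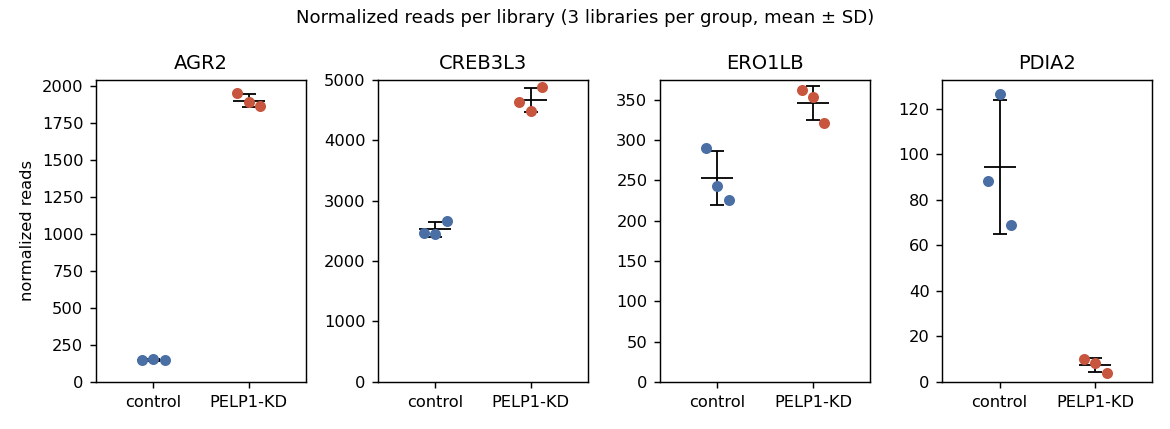
Normalized reads (vertical axes, each from 0) of AGR2, CREB3L3, ERO1LB and PDIA2 in the 3 control and the 3 PELP1-KD libraries, with the mean and SD of each group. The groups are apart in each panel, at means of 150.3 and 1900.3 for AGR2, 2525 and 4668 for CREB3L3, 253 and 346 for ERO1LB, and 94.4 and 7.47 for PDIA2.

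Apart from the AGR2 family, in which AGR2 rose, 8 of the 9 disulfide isomerases were lower (88.9%) and none was higher. Of all tested genes 26.8% were called in each direction. The median log2 fold change of the 9 was −0.28. TXNDC5 (ERp46, chr6:7881483-7911047), PDIA5 (chr3:122785856-122880953) and PDIA4 (ERp72, chr7:148700154-148725782) fell most among the abundant ones. TXNDC5 had 12676, 12720.5 and 12846 normalized reads in control and 8385, 8345 and 8476 in PELP1-KD libraries. The groups were apart by many times their spread, at a log2 fold change of −0.60 (SE 0.03, adjusted p = 3.28e-12). Of its 3496 exon bases 2930 are shared with the readthrough gene MUTED-TXNDC5, whose value of −0.60 rests on largely the same reads, so the division of reads between this pair is uncertain. PDIA5 had 1601, 1696 and 1694 normalized reads in control and 1136, 1135 and 1207 in PELP1-KD libraries, a log2 fold change of −0.52 (SE 0.05, adjusted p = 2.95e-08). PDIA4 had 17747, 17824 and 18292 normalized reads against 13506, 13573 and 13694, a log2 fold change of −0.40 (SE 0.03, adjusted p = 9.42e-10). In both genes every PELP1-KD library lay below every control library.

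PDIA2, the isomerase best known from pancreas, showed the steepest fall of the tested members at a low level (chr16:333118-337209, plus strand). Its raw reads were 96, 132 and 72 in control and 10, 7 and 4 in PELP1-KD, or 94.4 ± 29.4 and 7.47 ± 3.18 normalized reads (SD, n = 3 each). The groups did not overlap, although the control libraries ranged from 68.7 to 127 normalized reads, and the difference was −3.65 on the log2 scale (SE 0.32, 95% interval from −4.31 to −2.98, adjusted p = 9.32e-09). PDIA2 passed the filter on reads through its control libraries alone. A gene admitted in this way can appear only as a fall, so its call adds no support beyond the reads themselves. None of 5 markers of pancreatic acinar cells passed the filter, and CTRB1 and PNLIP had 0 reads in every library. The general isomerases fell less. P4HB, the archetypal protein disulfide isomerase, had 82.5% of its control level (log2 fold change −0.28, adjusted p = 3.7e-07), PDIA6 (P5) had 82.5% (−0.28, adjusted p = 7.62e-07), and PDIA3 (ERp57), the partner of calnexin and calreticulin, had 84.4% (−0.24, adjusted p = 1.01e-06). ERP29, which lacks the redox-active cysteines, stood at 93.6% (−0.10, adjusted p = 0.0346), a call that was lost when any one library was left out other than PELP1-KD replicate 3 (adjusted p up to 0.148). ERP44, which retains ERO1 in the early secretory pathway, was not called and had 96.3% of control (log2 fold change −0.05, 95% interval −0.15 to 0.05).

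The ERO1 oxidases, which recharge the isomerases, went opposite ways. ERO1L (chr14:53108605-53162419), the widely expressed form that is also induced by hypoxia, had 1725, 1849 and 1651 normalized reads in control and 1441, 1396 and 1219 in PELP1-KD libraries. All PELP1-KD values lay below the control values, a log2 fold change of −0.37 (SE 0.06, adjusted p = 3.36e-05). ERO1LB (chr1:236378422-236445339), the form known for proinsulin folding in pancreas, had 291, 242 and 225 normalized reads in control and 362, 354 and 322 in PELP1-KD libraries. The PELP1-KD libraries were higher without overlap, at a log2 fold change of 0.45 (SE 0.10, adjusted p = 0.000549). Per length ERO1L remained the more abundant form, with 35.9 ± 2.20 TPM in control and 28.5 ± 2.91 in PELP1-KD libraries, against 3.41 ± 0.469 and 4.77 ± 0.370 TPM for ERO1LB (SD, n = 3 each).

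Of the 5 general chaperones 4 fell (80%), against 26.8% of all tested genes called lower. HSPA5 (BiP, chr9:127997127-128003666), the Hsp70 of the ER and the usual readout of the response, had 31426, 30942 and 31580.5 normalized reads in control and 24974, 24997 and 24531 in PELP1-KD libraries. This was 79.3% of control with no overlap, a log2 fold change of −0.33 (SE 0.03, 95% interval −0.39 to −0.28, adjusted p = 5.55e-09). HSP90B1 (GRP94, chr12:104324189-104341703), the Hsp90 of the ER, had 44343, 44285 and 42654 normalized reads in control and 39448, 38007 and 37097 in PELP1-KD libraries. It fell by 0.20 on the log2 scale (SE 0.03, adjusted p = 1.84e-05), again without overlap, and 131 of its 2780 exon bases are shared with MIR3652. HYOU1, the exchange factor of BiP, stood at 86.4% of control (−0.21, adjusted p = 3.69e-05), and CALR (calreticulin) at 87.0% (−0.20, adjusted p = 5.71e-06). CANX (calnexin), the membrane-bound partner of calreticulin, was not called at 97.0% of control, with overlapping groups (log2 fold change −0.04, 95% interval −0.12 to 0.03). With the replicate block CANX was called, at the same size (adjusted p = 0.0429).

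Of the 4 cochaperones 2 fell (50%), against 26.8% of all tested genes called lower. Neither of the 2 small secreted stress proteins was called. DNAJB11, which brings clients to BiP, fell to 81.8% (log2 fold change −0.29, adjusted p = 4.79e-06), and DNAJC3 (p58IPK), another J-domain partner of BiP, to 87.3% (−0.20, adjusted p = 0.00402). DNAJB9 and SDF2L1, partners of BiP that are induced by stress, were not called at 97.6% and 96.3% of control, and their groups overlapped. CRELD2 and MANF, ER proteins that are induced and secreted under stress, both stood at 93.7% of control, with adjusted p of 0.0611 and 0.0526. Their groups did not overlap, and both were called with the replicate block (adjusted p = 0.0114 and 0.0112).

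**Figure D3:**
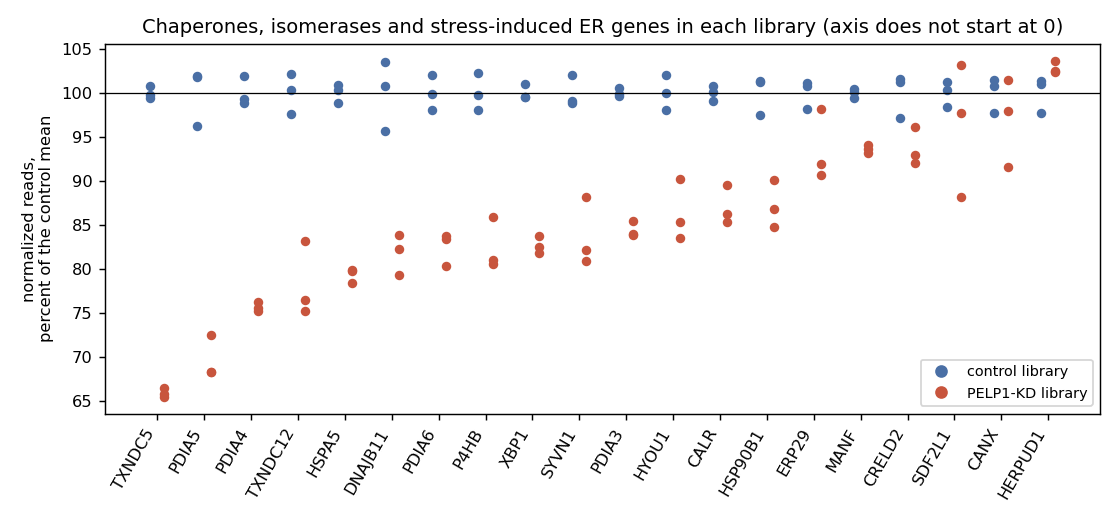
Normalized reads as percent of the control mean (vertical axis, not starting at 0) in each control and PELP1-KD library, for chaperones, isomerases and stress-induced ER genes, ordered by the PELP1-KD mean. TXNDC5 is lowest with PELP1-KD libraries between 65.5% and 66.5%, HSPA5 lies between 78.3% and 79.8%, and HERPUD1 lies between 102.4% and 103.6%.

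In ER-associated degradation, which returns misfolded proteins to the cytosol, the ubiquitin ligase SYVN1 (HRD1) had 83.7% of its control level (log2 fold change −0.26, adjusted p = 7.81e-05). Its adaptor SEL1L had 88.5% (−0.18, adjusted p = 0.000592). EDEM1, a mannosidase-like protein that marks glycoproteins for disposal, stood at 94.3% and was not called (−0.09, adjusted p = 0.0946), but was with the replicate block (adjusted p = 0.0267). HERPUD1, a membrane partner of SYVN1 and a classical target of the response, had 103% of control and was not called (0.04, 95% interval −0.05 to 0.13). Its 2065, 2134 and 2141 normalized reads in control lay just below the 2163, 2190.2 and 2165 of the PELP1-KD libraries.

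Among the sensors and factors, XBP1 fell and CREB3L3 rose, while ERN1 and ATF6 were not called. ERN1 (chr17:62120390-62207502), which encodes IRE1, the kinase and RNase that splices XBP1 mRNA, was rare. It had 219, 211 and 285 normalized reads in control and 208, 197 and 228 in PELP1-KD libraries. The groups overlapped and the interval was wide (log2 fold change −0.17, SE 0.11, 95% interval −0.41 to 0.06, adjusted p = 0.21). With 1 library left out, its value ranged from −0.25 to −0.02, the latter without control replicate 3. ERN2, its epithelial form, had 5, 1 and 1 reads in control and 1, 0 and 0 in PELP1-KD libraries and was not tested. XBP1 (chr22:29190548-29196560) had 17285, 17032 and 17033 normalized reads in control and 14009, 14332 and 14123 in PELP1-KD libraries. This was 82.7% of control without overlap, a log2 fold change of −0.27 (SE 0.03, adjusted p = 2.05e-07). Gene counts do not separate spliced from unspliced XBP1 mRNA.

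ATF6 (chr1:161736034-161933860), the sensor that is cleaved in the Golgi, had 1535, 1580.5 and 1546 normalized reads in control and 1493, 1533 and 1513 in PELP1-KD libraries. The values did not overlap, but the difference was not called (log2 fold change −0.04, SE 0.05, 95% interval −0.13 to 0.06, adjusted p = 0.491). EIF2AK3 (PERK, chr2:88856259-88927094), the kinase that slows translation, had 1363, 1407 and 1359 normalized reads against 1243, 1291 and 1187. It fell by 0.15 on the log2 scale (SE 0.05, adjusted p = 0.0144), and without control replicate 2 the value was −0.14 with an adjusted p of 0.0707.

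The CREB3-like factors are relatives of ATF6 that are also released by cleavage. CREB3L3 (CREBH, chr19:4153629-4173048), the liver-enriched member known for lipid and acute-phase genes, had 2469.6, 2441 and 2663 normalized reads in control and 4635, 4491 and 4878 in PELP1-KD libraries. All PELP1-KD libraries lay well above control, a fold change of 1.85 (log2 fold change 0.89, SE 0.04, adjusted p = 1.93e-12). CREB3L1 (OASIS), known for collagen secretion, had 653, 670.0 and 693 normalized reads in control and 474, 525 and 581 in PELP1-KD libraries, and fell without overlap (−0.35, SE 0.07, adjusted p = 0.000459). CREB3L2, known for secretory pathway genes in cartilage, was not called at 104% of control (0.05, 95% interval −0.03 to 0.13). Of the 3 factors, CREB3L3 was the most abundant per length in both groups, with 66.6 ± 2.85 TPM in control and 126 ± 4.12 in PELP1-KD libraries (SD, n = 3 each).

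The promoter elements divide the genes in another way. Of the 10 carriers of ERSE or ERSE-II, all of which were tested, 5 fell (HSPA5, HSP90B1, HYOU1, CALR and XBP1), 1 rose (ERO1LB) and CANX, SDF2L1, CRELD2 and HERPUD1 were not called. Their median log2 fold change was −0.15. Of the 24 tested genes with a promoter sequence and no such match 15 fell and 2 rose, with a median of −0.19. The difference between these sets was not tested. Calls among all tested genes were 26.8% in each direction. Only exact letters within the searched window count as a match, so genes without a match may still carry variant or more distant elements. In the set without a match, the windows of PDIA6 and CREB3L1, which both fell, lay 19651 and 17482 bases from the gene start used for counting. The sequence at that start was not searched for them. HSP90B1 and HYOU1, whose printed stretches hold 2 matches each, fell by 0.20 and 0.21 on the log2 scale. SDF2L1 and HERPUD1, with 1 ERSE-II each, had −0.05 and 0.04. The carriers of 1 ERSE spread more widely, with HSPA5 at −0.33, XBP1 at −0.27, CALR at −0.20, CRELD2 at −0.09, CANX at −0.04 and ERO1LB at 0.45.

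The wider ER machinery was followed in 5 further lists that hold no member, with 179 genes in the tables and 174 tested. Of these 75 were lower (43.1%) and 32 higher (18.4%), against 26.8% of all tested genes in each direction, and their median log2 fold change was −0.08. The lists for entry into the ER and for export from it were the most one-sided. Of 38 genes of the translocon, the signal peptidase and N-glycosylation 20 fell and 3 rose, with a median of −0.13. SSR1, a subunit of the translocon-associated complex, fell by 0.57, SRP72, a signal recognition particle protein, fell by 0.41, and TUSC3, an oxidoreductase subunit of oligosaccharyltransferase, fell by 2.54 on the log2 scale (adjusted p = 4.66e-10, 1.22e-08 and 2.18e-11). TUSC3 had a mean of 246 ± 23.1 normalized reads in control and 42.5 ± 9.75 in PELP1-KD libraries (SD, n = 3 each). The 3 genes that rose were SEC61A2 (0.49), STT3B (0.16) and MAGT1 (0.12), and MAGT1, which serves with STT3B as the alternative to TUSC3, overlapped between the groups. Of 37 genes of ER to Golgi carriers and retrieval 18 fell and 3 rose, with a median of −0.09. SEC24D, a coat protein, fell by 0.54, the cargo receptor SURF4 by 0.32 and TMED2 by 0.32, whereas the coat genes SEC31A (0.26) and SAR1B (0.30) and the collagen receptor MIA3 (0.22) rose.

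Other folding enzymes went both ways, with 16 lower (41%) and 10 higher (25.6%) of 39 tested and a median of −0.06. Of all tested genes 26.8% were called in each direction, so the share that rose was near that of all genes. The collagen chaperone FKBP10 (−0.85), the prolyl isomerase PPIB (−0.51) and C19orf10 (−0.56) fell, while the collagen prolyl hydroxylase subunit P4HA2 (0.68), the prolyl isomerase FKBP11 (0.47) and the J-domain protein DNAJC1 (0.44) rose. In the list of other degradation genes, 11 of 30 fell (36.7%) and 6 rose (20%), with a median of −0.07. EDEM3 (−0.53), UBAC2 (−0.44) and ERLIN1 (−0.31) fell, and FAF2 (0.30), FBXO6 (0.60) and OS9 (0.18) rose.

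The list of UPR signaling and outputs of PERK and ATF4 was evenly divided, with 10 genes lower and 10 higher of 30 tested and a median of −0.03. This was 33.3% in each direction, against 26.8% of all tested genes. NUPR1, a stress-induced chromatin protein, had 1067, 969 and 1122 normalized reads in control and 245, 212 and 242 in PELP1-KD libraries, far below control (log2 fold change −2.17, SE 0.08, adjusted p = 9.47e-15). CHAC1, a glutathione-degrading enzyme and ATF4 target, fell by 1.19 (adjusted p = 1.11e-08), and DDIT4, an inhibitor of mTORC1, by 0.34 (adjusted p = 0.000135). The proapoptotic gene BCL2L11 (BIM) rose by 0.89 on the log2 scale, from 1311 ± 75.8 normalized reads in control to 2429 ± 69.6 (SD, n = 3 each, adjusted p = 8.19e-12). CEBPB rose by 0.59 (adjusted p = 1.56e-10) and the death receptor gene TNFRSF10B by 0.35 (adjusted p = 1.47e-07). Chosen after their values were seen, ATF4 had a log2 fold change of −0.10 (adjusted p = 0.0179) and its target DDIT3 (CHOP) one of 0.31 (adjusted p = 0.000154). ATF4 and DDIT3 therefore moved in opposite directions, whereas the ATF4 target CHAC1 fell as ATF4 did. The small change of ATF4 was not followed in the alternative fits.

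**Figure D4:**
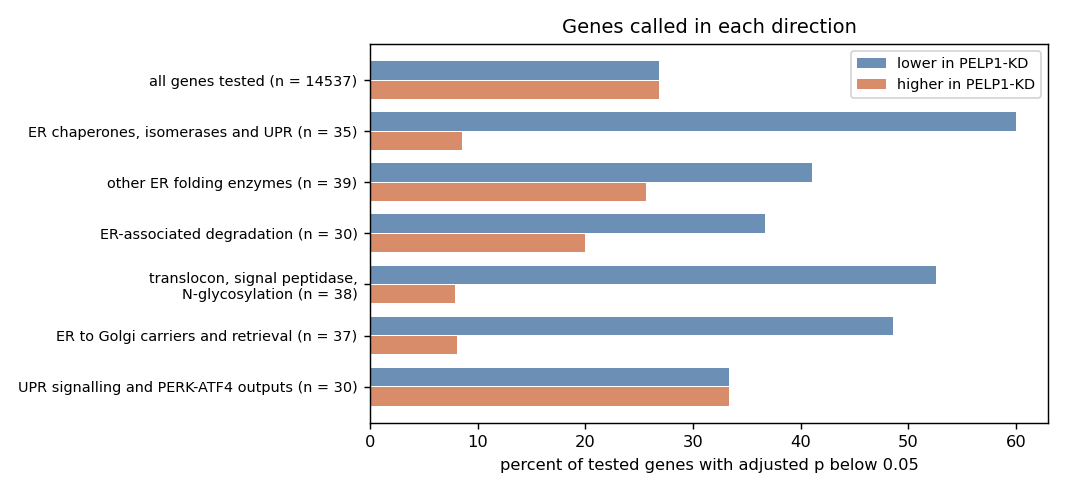
Percent of tested genes with an adjusted p below 0.05 (horizontal axis, from 0) that were lower or higher in PELP1-KD libraries, for all tested genes, the ER chaperone, isomerase and UPR genes, and the 5 further ER lists. The bars for all tested genes are equal at 26.8%, while the chaperone and isomerase genes have 60% lower and 8.57% higher, and the UPR signaling list has 33.3% in each direction.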

How the data were processed

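Total RNA of 6 Hep3B libraries was sequenced, 3 control and 3 labelled PELP1-KD, grouped by treatment label and title. The sources describe RNA selection both as poly(A) and as ribosomal depletion. The submitters' processing notes name HISAT2, whereas the paper's methods name TopHat2 and HTSeq. Per the file headers, the authors counted reads on exons of hg19 with featureCounts (v1.5.0-p1) counting by strand, from a mapping quality of 2 upward, and divided reads that fit several places or genes. What was deposited is therefore an estimated count for each gene, not normalized, beside the exon length of each gene, a column of another unit used here for TPM. Between 10.6% and 13.3% of the estimated counts of a library were not whole, and they were rounded.

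All genes were fitted in edgeR 4.0.16 (R 4.3.3; filterByExpr, TMM, glmQLFit with robust estimation, glmQLFTest), with Benjamini-Hochberg adjustment over 14537 genes. Normalized reads are reads scaled to the TMM library size, with the geometric mean of the libraries as 1. Standard errors were derived from the F statistic, and 95% intervals use the degrees of freedom of the test. The median standard error over all genes was 0.06 on the log2 scale. The fit was tested on simulated data. Replicates differed beyond sampling noise (chi-square per degree of freedom from 1.94 to 7.02), so each was counted.

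Pairing by replicate number was checked with 6370 genes. Deviations from the group mean of libraries with the same number, taken from the titles, correlated at 0.336, 0.247 and 0.666 across genes. Control 2 with PELP1-KD 1 gave 0.418, and control 1 with PELP1-KD 2 gave 0.244. Control 3 gave −0.569 with PELP1-KD 1 and −0.372 with PELP1-KD 2. PELP1-KD 3 gave −0.406 with control 1 and −0.475 with control 2. The libraries numbered 3 thus deviated alike, and apart from those numbered 1 and 2. These correlations do not settle that the numbers are pairs. The main fit used no pairs, and the replicate block was run as an alternative. Adjusted p-values come from fits without pairs unless the block is named.

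Members, lists and motifs were chosen with earlier results of these data known. Full values were given for genes past both thresholds, the 5 other members with the smallest p in each direction, and the main sensors and effectors, and in the further lists for the 3 called genes with the smallest p in each direction. Further members were given values to complete their role. Alternatives were DESeq2 1.42.0, its size factors or upper-quartile scaling in edgeR, no filter, at least 10 reads in every library, the replicate block, and each library left out. No protein sequences were used here.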

Additional observations from a re-analysis of the deposited data

How the results depend on the processing

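With replicate number as a block, 25 members were lower and 3 higher, CANX, CRELD2, MANF and EDEM1 being the added calls, and PELP1 was called lower (−0.083, adjusted p = 0.0106). No other call of a member changed with the block. In the 12 alternatives 3 members were higher each time, and between 19 and 25 were lower. With at least 10 reads in every library, 0 members were lower by at least 2-fold, since PDIA2 was then not tested. When single libraries were left out, the median log2 fold change of tested members lay between −0.19 and −0.18, and the value of PELP1 between −0.10 and −0.04 (adjusted p = 0.018 without PELP1-KD replicate 3). In those fits AGR2 lay between 3.63 and 3.69, CREB3L3 between 0.85 and 0.93, and PDIA2 between −3.96 and −3.33. ERP29 was called in 1 of the 6 fits and EIF2AK3 in 5. SDF2L1 and CRELD2 were called without PELP1-KD replicate 3. DNAJB9 and SDF2L1 were the only members to change sign in any alternative. DESeq2 called the same members. MANF gained a call with the size factors of DESeq2, and CRELD2 and MANF with upper-quartile scaling and with at least 10 reads in every library. Few reads limit AGR3, ERN2, ERN1 and PDIA2.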

Other observations

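The genes within 100000 bases of the 3 members that changed most were looked at after their values were seen. Around AGR2, TSPAN13 lies 8103 bases away on the other strand and had a log2 fold change of 0.25 (edgeR adjusted p = 0.00012), while BZW2 had −0.06 (adjusted p = 0.136). Around PDIA2, ARHGDIG lies 115 bases away on the same strand with 27 reads in control and 39 in PELP1-KD libraries (0.69, adjusted p = 0.166). AXIN1, which ends 231 bases away on the other strand, had 0.14 (adjusted p = 0.0372), and ITFG3 had −0.36 (adjusted p = 2.25e-06). Around CREB3L3, SIRT6 at 1058 bases on the other strand had 0.24 (adjusted p = 0.00235), ANKRD24 on the same strand had 63 and 117 reads (1.05, adjusted p = 0.00272), and MAP2K2 had 0.00 (adjusted p = 0.968). Further from PDIA2, LUC7L had −0.39 (adjusted p = 0.000124), TMEM8A −0.18 (adjusted p = 0.00161) and MRPL28 −0.14 (adjusted p = 0.0244), and LOC100134368 had 0.17 (adjusted p = 0.691). Near CREB3L3, EBI3 had 0.38 (adjusted p = 0.00888), while ZBTB7A had −0.27 (adjusted p = 8.32e-05) and CCDC94 −0.29 (adjusted p = 0.000741). Whether the members and their neighbours changed together was not tested.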
